A study of Mus musculus with 6 samples.

Results

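The 10 genes described here encode alarmins, receptors, a transcription factor and secreted effectors of type 2 immunity. They are the alarmins Il33 and Tslp, the receptor chains Il1rl1, Il4ra and Il13ra1, the transcription factor Gata3, the chitinase family genes Chia1, Chil3 and Chil4, and the resistin-like gene Retnla. They were chosen by name, through the gene symbols of the array or their older forms, from 20246 genes measured in whole lung. RNA came from 3 lungs of mice lacking Nogo-A and Nogo-B, called knockout 1, 11 and 12, and from 3 lungs of wild-type mice, called wild type 11, 12 and 13. All 6 mice were naive males aged 8 weeks, and every array carried the Cy3-labelled RNA of a single lung. Nogo-A and Nogo-B are longer protein forms made from the reticulon gene Rtn4, and the study asked about the part of Nogo in asthma. The sources used here name neither the strain nor the knockout allele, and a whole-lung knockout does not single out any cell type. The comparison addressed here is the baseline of the type 2 genes in unchallenged lung, in knockout against wild-type mice.

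In type 2 immunity, damaged or stimulated epithelium releases the alarmins IL-33 and TSLP. IL-33 acts through ST2, the product of Il1rl1, on innate lymphoid cells, T helper 2 cells and mast cells, which can respond with IL-5, IL-13 or IL-4. GATA3 is needed for the innate lymphoid cells and T helper 2 cells. IL-4 and IL-13 signal through the receptor chains encoded by Il4ra and Il13ra1 to the transcription factor STAT6, and in the mouse lung this pathway induces Retnla, Chil3, Chil4 and Chia1 in macrophages and airway epithelium. In the unchallenged mouse lung, Il33 is expressed by alveolar epithelial type 2 cells, and Chil3 by alveolar macrophages.

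The 10 genes were represented by 15 probes of 60 bases. The scanner software judged 14 of them well above background on 3 or more arrays, and 13 on all 6. No spot of these probes was saturated. Values are log2 signals relative to the 75th percentile of the same array, so a value of 0 is the signal that 75% of the array's probes do not exceed. They compare a probe between arrays and give no ratio between genes. The brightness of probes was used to choose 1 probe for a gene, and in the summed signals of gene lists below a bright probe weighs more than a dim one. In bulk lung RNA, fewer cells of a type and less RNA per cell cannot be told apart.

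Across the whole series, the arrays' 75th percentile signals ranged from 1086 to 2343, and 68.9% to 78.0% of probes were well above background. As a check of the labels, a probe in the Rtn4 locus stood well above background on 0 of 3 knockout arrays and 3 of 3 wild-type arrays. A pair of other Rtn4 probes was well above background on all 6 arrays, and one of the pair had log2 signals of 1.08, -0.50 and -1.96 in knockouts 1, 11 and 12, against 1.66, 1.47 and 2.36 in wild types 11, 12 and 13. The groups did not overlap there, with knockout 1 nearest to the wild types, and the position of these probes relative to the deleted part was not determined. The lung identity of the samples was checked on alveolar type 2 cell markers, and all 12 were measured, with a median log2 difference of 0.054, and Sftpc, the surfactant protein C gene, at 7.83 to 8.78 on all arrays. The arrays had been scanned on separate days. Knockout 1, knockout 11 and wild type 13 were scanned on day 1, and knockout 12, wild type 11 and wild type 12 on day 2. The day 2 arrays all lay on 1 slide, so scan day and slide cannot be told apart there. Over all genes, correlations between arrays were 0.972 to 0.994 within a day and 0.951 to 0.966 across days. The genotype difference of each of the 10 genes is therefore also given adjusted for the day and for each day alone. The adjustment comes from a model with the scan day as a block.

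None of the 10 type 2 genes passed the test of knockout against wild-type lungs. With limma, 0 of 10 passed an adjusted p of 0.05, against 0.00% of all genes tested, and 0 of 10 reached an unadjusted p under 0.05, against 0.958% of all genes. The knockout and wild-type values overlapped for all 10, where 2.41% of all genes had knockout values wholly above the wild type and 1.59% wholly below. In the fit without covariates 5 genes had a positive difference and 5 a negative one, with a median of -0.040 for the 10 genes and 0.010 for all genes. The adjusted p was 0.9998 for each of the 10. These results do not show that the genes were alike in both genotypes, since the 95% intervals reached from 0.53 to 1.35 on the log2 scale to either side of the estimate.

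**Figure D1:**
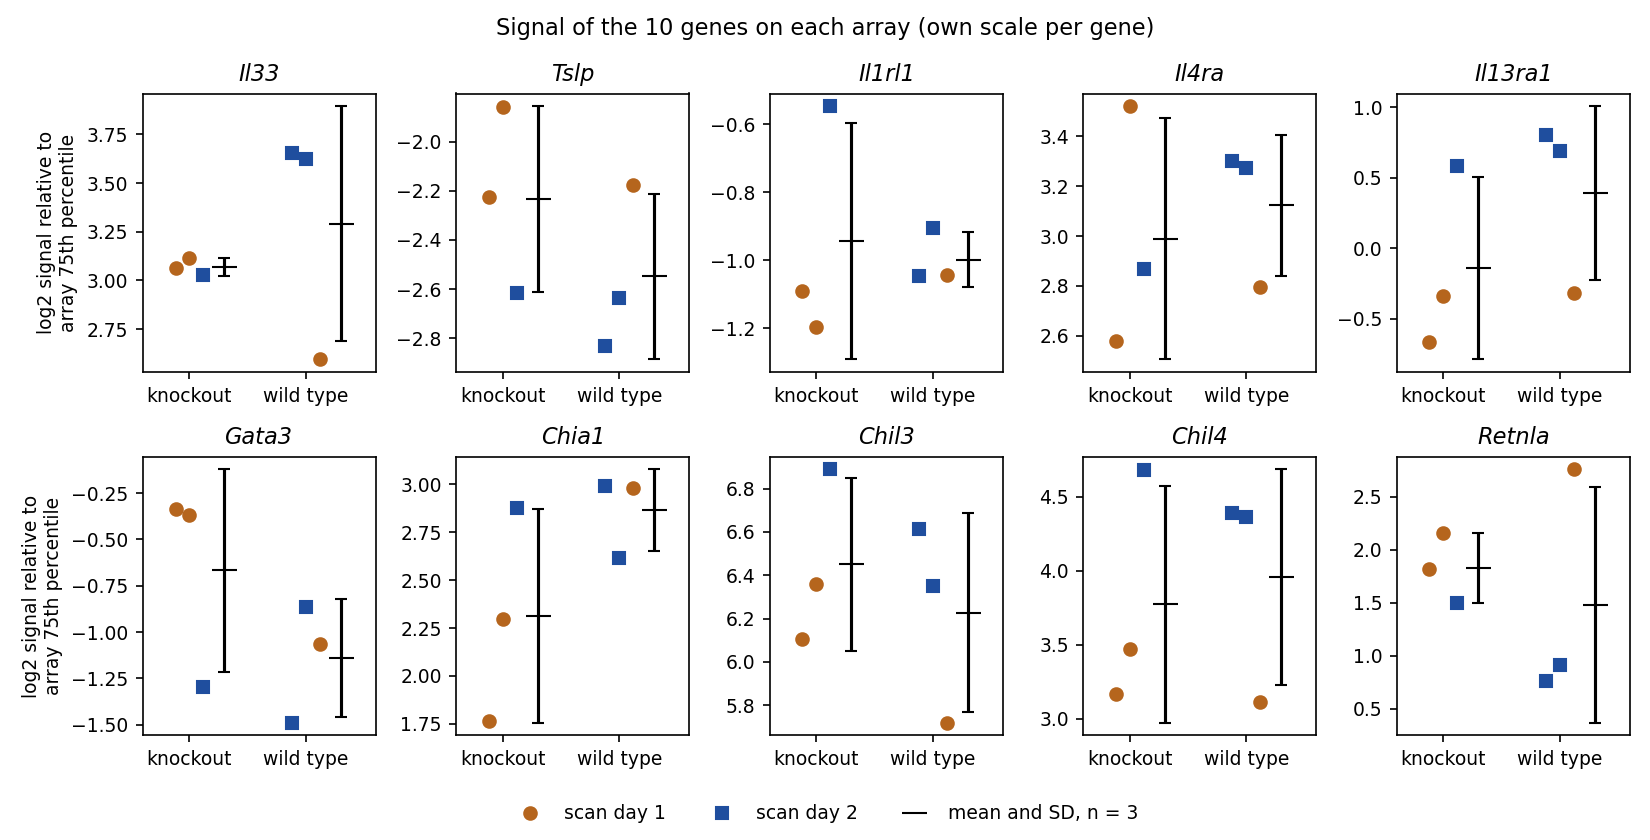
Log2 signal of each of the 10 genes on each array, relative to the array's 75th percentile, with the 3 knockout arrays left of the 3 wild-type arrays and a separate vertical scale for each gene. Circles are arrays of scan day 1 and squares those of day 2, and the black bars are the mean and SD of each genotype. The genotypes overlap in every panel, while Tslp, Il13ra1, Chil4 and Retnla separate circles from squares.

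Il33 encodes a nuclear cytokine of the interleukin 1 family that is released as an alarmin. Its probe lies on chromosome 19 (mm7, 29660344 to 29660403), where the array files carry the older symbol 9230117N10Rik. Il33 had log2 signals of 3.06, 3.11 and 3.03 in knockouts 1, 11 and 12, against 3.66, 3.62 and 2.59 in wild types 11, 12 and 13. The 3 knockout lungs lay within 0.09 of each other, and the wild-type lungs lay on both sides of them, with wild type 13 lowest. The log2 difference was -0.22 (SE 0.32), with a 95% interval from -0.99 to 0.54, which is a knockout to wild-type ratio from 0.504 to 1.46. Adjusted for the day it was -0.059. It was 0.50 within day 1 and -0.61 within day 2, so the sign differed between the days. The interaction of genotype and day was -1.11 (SE 0.22), at an adjusted p of 0.380 in limma (0.00769 before adjustment).

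Tslp encodes thymic stromal lymphopoietin, an epithelial cytokine that activates dendritic cells. Its log2 signal on chromosome 18 was -2.22, -1.86 and -2.62 in knockouts 1, 11 and 12, against -2.83, -2.64 and -2.18 in wild types 11, 12 and 13. The spots were 5.27 to 11.5 times as bright as their local background. The 3 arrays of day 1 were the highest, and both genotypes were found on either side of the gap. The genotype difference was 0.32 (SE 0.28), with a 95% interval from -0.35 to 0.98. After adjustment for the day it was 0.13, with 0.13 on day 1 and 0.12 on day 2.

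Il1rl1 encodes ST2, the receptor chain that binds IL-33, in a membrane-bound and a soluble form. Its 3 probes are assigned in the array files to different transcripts. The probe for transcript variant 1 (mm7 chromosome 1, 40705585 to 40705644) was the brightest and was well above background on all arrays. It had log2 signals of -1.09, -1.20 and -0.55 in knockouts 1, 11 and 12, against -1.05, -0.91 and -1.04 in wild types 11, 12 and 13. Knockout 12 stood above the other 5 arrays, which lay within 0.29 of each other. The difference was 0.054 (SE 0.22), with a 95% interval from -0.48 to 0.59. After adjustment for the day it was 0.17, with -0.10 on day 1 and 0.43 on day 2.

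The probes for transcript variant 2 of Il1rl1 were dim. One (40688351 to 40688410) was not well above background on any of the 6 arrays, so no fold is given for it. The other (40680766 to 40681628) stood well above background on 3 of 3 knockout arrays and 1 of 3 wild-type arrays. Its log2 signals were -6.82, -4.62 and -6.0 in knockouts 1, 11 and 12, against -6.57, -6.57 and -6.41 in wild types 11, 12 and 13. Knockout 11 was the highest and knockout 1 the lowest of all 6. With 2 wild-type arrays not well above background the difference has no firm base, and it was 0.71 (SE 0.54) in the main scaling, 0.29 under normexp with quantile normalization and 0.27 on the authors' values, with an adjusted p of 0.9998 or more in each.

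Il4ra encodes the chain shared by the receptors for IL-4 and IL-13. On chromosome 7 its log2 signals were 2.58, 3.52 and 2.87 in knockouts 1, 11 and 12, against 3.30, 3.27 and 2.80 in wild types 11, 12 and 13. The highest and the lowest array were both knockouts. The difference was -0.14 (SE 0.30), with a 95% interval from -0.86 to 0.59. After adjustment for the day it was -0.084, with 0.25 on day 1 and -0.42 on day 2.

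Il13ra1 encodes the chain that joins IL-4Rα in the receptor through which IL-13 signals. Its 2 probes lie apart on chromosome X and correlated at 0.935 over the 6 arrays. The brighter probe (mm7, 30929922 to 30929981) had log2 signals of -0.67, -0.34 and 0.58 in knockouts 1, 11 and 12, against 0.80, 0.69 and -0.32 in wild types 11, 12 and 13. The 3 positive values were those of the day 2 arrays, 1 knockout and 2 wild types. The genotype difference was -0.53 (SE 0.44), with a 95% interval from -1.60 to 0.53. The day-adjusted difference was -0.17, with -0.19 on day 1 and -0.16 on day 2. The other probe gave a genotype difference of -0.51 (SE 0.40).

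Gata3 encodes the transcription factor needed by T helper 2 cells and group 2 innate lymphoid cells. On chromosome 2 its log2 signals were -0.34, -0.37 and -1.3 in knockouts 1, 11 and 12, against -1.49, -0.87 and -1.06 in wild types 11, 12 and 13. Knockouts 1 and 11 were above every wild-type array, and knockout 12 was second lowest of the 6. The difference was 0.47 (SE 0.33), with a 95% interval from -0.32 to 1.27. The day-adjusted difference was 0.30, with 0.71 on day 1 and -0.12 on day 2. T cell markers, which bear on the same cells, were higher for 10 of 12 measured genes with a median of 0.19. Unlike for Gata3, the median kept its sign within the days, at 0.154 on day 1 and 0.225 on day 2. Cd3e and Cd2 were lower, at -0.21 and -0.086. The summed linear signal of the list was 4.74 to 6.0 in knockouts and 4.13 to 4.72 in wild types. Cd3d, a subunit of the T cell receptor complex, had a difference of 0.49 (SE 0.19), at an adjusted p of 0.9998 in limma. The part of T cell content in the Gata3 values was not tested.

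Chia1 encodes acidic mammalian chitinase, an enzyme that cuts chitin, and Chil3 and Chil4 encode Ym1 and Ym2, related lectins without chitinase activity. The 3 genes lie on chromosome 3 and share sequence. The probes of Chia1 and Chil4 that lie over the same stretch of coding sequence show this for that pair only. In the probe sequences below, from the array files and written 5′ to 3′, capitals mark bases that are identical between Chia1 (mm7 chr3:105946793-105946852, plus strand) and Chil4 (mm7 chr3:106022134-106022413, minus strand) over 48 aligned bases.
Chia1: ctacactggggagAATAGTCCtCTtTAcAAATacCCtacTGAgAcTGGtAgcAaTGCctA
Chil4: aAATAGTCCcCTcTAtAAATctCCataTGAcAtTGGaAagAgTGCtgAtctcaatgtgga
Of the 48 aligned bases 31 were identical. The probe of Chil3 was not aligned with either, and cross-hybridisation between these relatives was not tested.

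Chia1 was measured by 2 probes. Its brighter probe (105950337 to 105950396) had log2 signals of 1.76, 2.30 and 2.88 in knockouts 1, 11 and 12, against 2.99, 2.62 and 2.98 in wild types 11, 12 and 13. Knockouts 1 and 11 were below every wild-type array, and knockout 12 lay among them. The difference was -0.55 (SE 0.31), with a 95% interval from -1.31 to 0.21, or a ratio from 0.404 to 1.15, and it was -0.28 without knockout 1. The probe whose sequence is given above had log2 signals of 0.25, 0.73 and 1.81 in knockouts 1, 11 and 12, against 2.0, 1.70 and 1.89 in wild types 11, 12 and 13. Its difference was -0.93 (SE 0.41), at an adjusted p of 0.9999 over all probes in limma. The probes do not overlap and correlated at 0.973 over the 6 arrays. The day-adjusted difference was -0.44 for the brighter probe and -0.72 for the other. It was -0.95 and -1.39 on day 1, and 0.072 and -0.037 on day 2.

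Chil3, a product of alveolar macrophages, had log2 signals of 6.10, 6.36 and 6.89 in knockouts 1, 11 and 12, against 6.61, 6.35 and 5.72 in wild types 11, 12 and 13 (mm7, 105965855 to 105965914). Within each day the knockout arrays lay above the wild-type arrays, as they also did for Chil4. The share of all genes with this order was not counted. For Chil3 the day 1 knockouts and the day 2 wild types overlapped. The genotype difference was 0.22 (SE 0.32), with a 95% interval from -0.55 to 0.99. It was 0.035 under quantile normalization, 0.036 under normexp with quantile normalization and 0.031 on the authors' values. Adjusted for the day it was 0.46 (SE 0.16), with a 95% interval from 0.056 to 0.86, at an adjusted p of 0.9995 in limma (0.0326 before adjustment). Chil3 was the only one of the 10 genes, or 1 of 10, at an unadjusted p under 0.05 in that fit, against 2.09% of all genes. The difference was 0.51 within day 1 and 0.41 within day 2. Without wild type 13 the difference in the fit without the block was -0.031.

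Chil4 had log2 signals of 3.17, 3.47 and 4.68 in knockouts 1, 11 and 12, against 4.39, 4.36 and 3.12 in wild types 11, 12 and 13. The 3 day 1 arrays lay within 0.36 of each other, and the 3 day 2 arrays within 0.32, with a gap between them. The genotype difference was -0.18 (SE 0.52), with a 95% interval from -1.45 to 1.09. Adjusted for the day it was 0.26 (SE 0.15), with an adjusted p of 0.9995 in limma. The difference was 0.21 within day 1 and 0.30 within day 2, so the sign without the block was opposite to that within both days.

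Retnla encodes RELMα, also called FIZZ1, a secreted protein of alternatively activated macrophages and airway epithelium. Its 2 probes on chromosome 16 share 50 of 60 bases and correlated at 0.998, so they are not separate evidence. The brighter one (mm7, 48604517 to 48604576) had log2 signals of 1.82, 2.16 and 1.5 in knockouts 1, 11 and 12, against 0.77, 0.92 and 2.76 in wild types 11, 12 and 13. Wild type 13 was the highest and the other wild types were the lowest, with the 3 knockouts between them. Retnla had the widest range of the 10 genes, 1.99 on the log2 scale. The genotype difference was 0.35 (SE 0.56), with a 95% interval from -1.0 to 1.70, or a ratio from 0.499 to 3.25. The day-adjusted difference was -0.053, with -0.77 on day 1 and 0.66 on day 2. The interaction of genotype and day was 1.43 (SE 0.31), at an adjusted p of 0.382 in limma (0.0110 before adjustment).

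**Figure D2:**
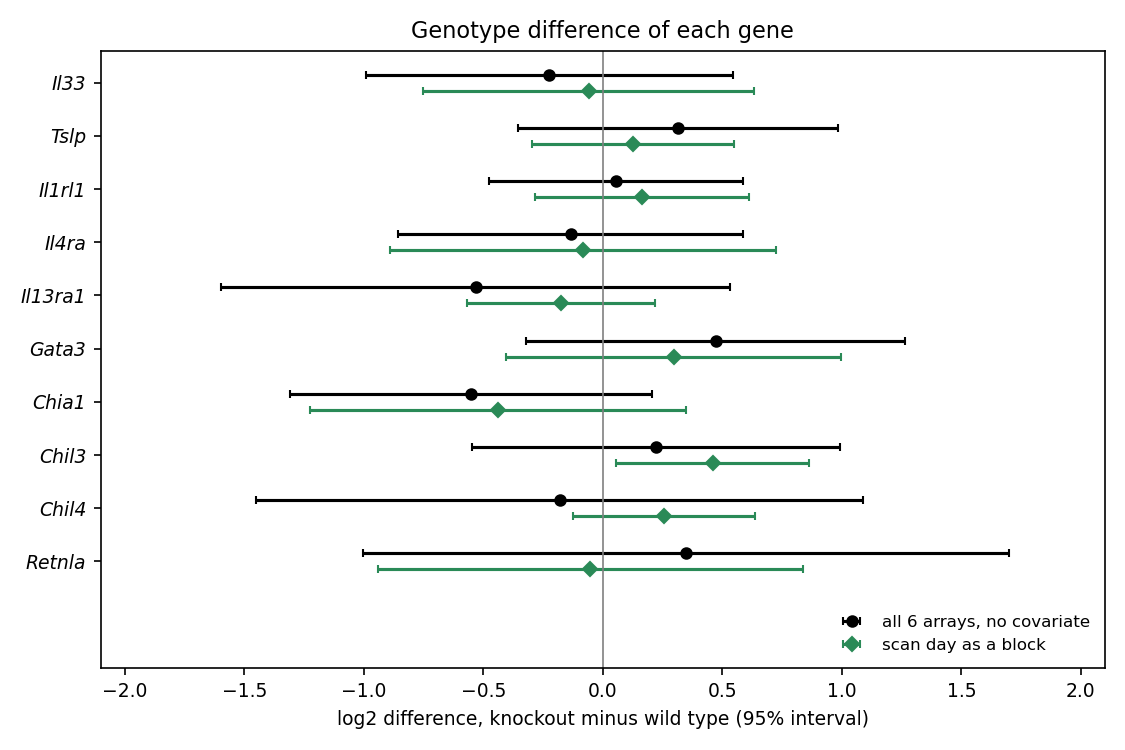
Log2 difference, knockout minus wild type, of each gene with its 95% interval, from the fit without covariates (black circles) and with scan day as a block (green diamonds). All 10 black intervals include 0, and of the green ones the interval of Chil3, from 0.056 to 0.86, does not.

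Within single scan days the genotype differences of 6 of the 10 genes had opposite signs. These were Il33, Il1rl1, Il4ra, Gata3, Chia1 and Retnla. Tslp, Chil3 and Chil4 were positive and Il13ra1 was negative within both days. Within day 2, where knockout 12 alone stood against wild types 11 and 12, 4 of 10 genes reached an unadjusted p under 0.05, namely Il33, Il1rl1, Il4ra and Retnla. The share among all genes in that fit was 19.3%, and the lowest adjusted p of the 4 was 0.198 in limma. Tested as an interaction of genotype and day, 2 of 10 reached an unadjusted p under 0.05, against 11.6% of all genes, and 0 of 10 passed an adjusted p of 0.05, against 0.00%. Each day held 1 genotype in a single array, which was assumed to vary like the others.

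**Figure D3:**
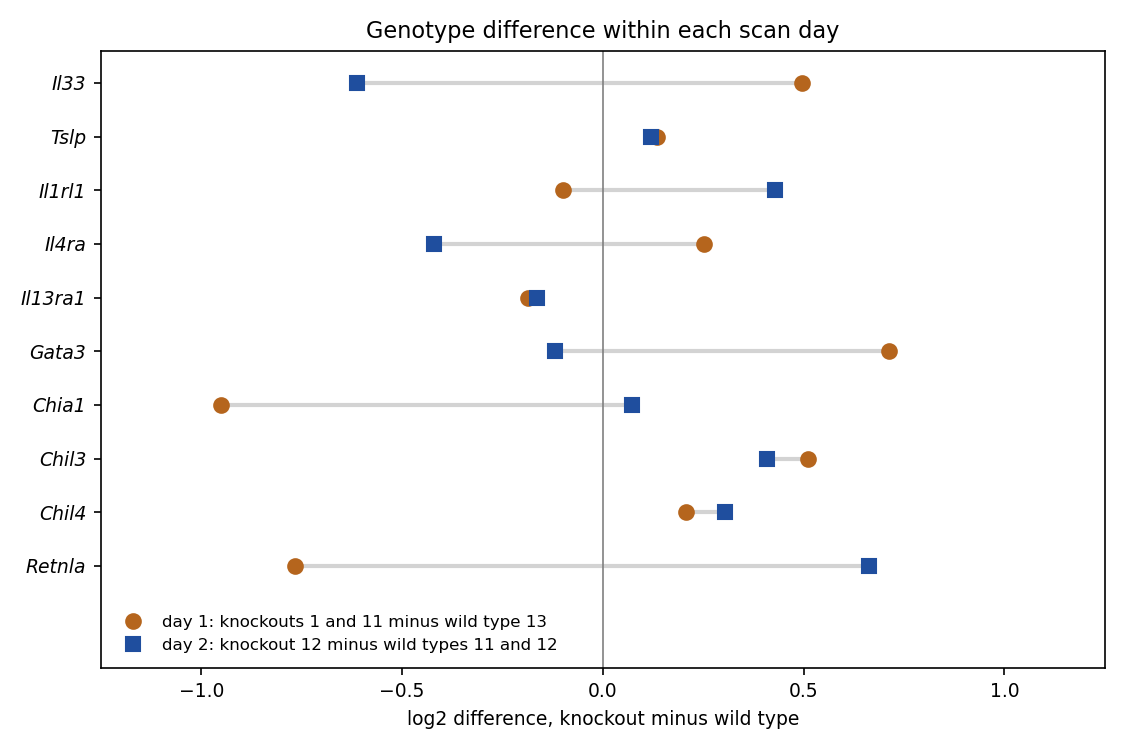
Log2 difference, knockout minus wild type, of each gene within scan day 1 (circles, 2 knockouts against 1 wild type) and within day 2 (squares, 1 knockout against 2 wild types), joined by a grey line. The line crosses 0 for 6 genes, and the widest lines are those of Retnla, from -0.77 to 0.66, Il33, from 0.50 to -0.61, and Chia1, from -0.95 to 0.072.

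The arrays of the scan days were also set against each other. With genotype in the model, 2 of 10 genes were past an adjusted p of 0.05 between the days in limma, against 10.7% of all genes. With single arrays left out the count was 0 to 3 of 10, with 0 without wild type 13, 1 without knockout 12, 1 without wild type 11 or 12 and 3 without knockout 11. Over all genes it was 2158, and with single arrays left out 589 without wild type 13, 913 without wild type 11, 951 without knockout 12, 996 without wild type 12, 1380 without knockout 1 and 2422 without knockout 11. Both were higher on day 2, a direction in which 2.16% of all genes were called, while 8.50% were called lower. The day values did not overlap for 4 of 10 genes, Tslp, Il13ra1, Chil4 and Retnla, a share near the 39.3% of all genes. The median difference between the days was 0.33 for the 10 genes and 0.045 for all genes. This contrast was added after the data had been seen, and the sources used here do not say what differed between the days besides the scan and the slide.

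Chil4 averaged 4.48 ± 0.18 on day 2 and 3.25 ± 0.19 on day 1 (SD, n = 3 each), a difference of 1.31 (SE 0.15) at an adjusted p of 0.00867 in limma. With single arrays left out the adjusted p lay between 0.0142 and 0.0646, and it was 0.0646 without wild type 13 and 0.0580 without knockout 12. Il13ra1 averaged 0.69 ± 0.11 on day 2 and -0.44 ± 0.20 on day 1 (SD, n = 3 each), a difference of 1.07 (SE 0.16) at an adjusted p of 0.0161 in limma. This call was lost without wild type 11, 12 or 13 or knockout 12, at adjusted p of 0.0819, 0.0718, 0.101 and 0.0821 in limma, and it held without knockout 1 or knockout 11. The other probe of Il13ra1 did not pass between the days, with a difference of 0.815 (SE 0.263). Its adjusted p over probes was 0.102 in limma, against 0.0110 for the brighter probe. Chil3 averaged 6.62 ± 0.27 on day 2 and 6.06 ± 0.32 on day 1 (SD, n = 3 each). Its difference of 0.71 (SE 0.16) had an adjusted p of 0.0535 over genes and 0.0420 over probes in limma, and the adjusted p was 0.0445 under quantile normalization, 0.0358 under normexp with quantile normalization and 0.0410 on the authors' values. It was 0.142 with genotype left out, 0.0489 without knockout 11 and from 0.109 to 0.198 without each of the other 5 arrays.

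Retnla ran the other way, at 1.06 ± 0.39 on day 2 and 2.25 ± 0.47 on day 1 (SD, n = 3 each). Its difference of -1.20 (SE 0.35) had an adjusted p of 0.0986 in limma, of 0.0388 without knockout 12 and of 0.0440 with genotype left out of the model. Without wild type 13 the difference was -0.49, at an adjusted p of 0.290, and without each of the other 4 arrays the adjusted p was 0.105 to 0.259. Tslp was also lower on day 2, at -2.70 ± 0.12 on day 2 and -2.09 ± 0.20 on day 1 (SD, n = 3 each), a difference of -0.57 (SE 0.17) at an adjusted p of 0.100 in limma, or 0.0404 with genotype left out. The difference was -0.33 under quantile normalization, -0.25 under normexp with quantile normalization and -0.23 on the authors' values, at adjusted p of 0.268, 0.289 and 0.350, and the adjusted p was 0.101 to 0.301 with single arrays left out. The differences between the days were 0.49 for Il33, 0.33 for Il1rl1, 0.15 for Il4ra, 0.33 for Chia1 and -0.53 for Gata3, at adjusted p from 0.290 to 0.803 in limma.

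Most alveolar macrophage markers were higher on day 2. Of 14 listed genes 13 were measured, and 10 of the 13 had a positive difference between day 2 and day 1, with a median of 0.68. Fabp4, Fabp5 and Car4 had negative differences, at -1.15, -0.46 and -0.31. The genes past an adjusted p of 0.05 were 5 of the 13, all higher on day 2, a direction in which 2.16% of all genes were called. They were the scavenger receptor gene Marco at 1.72 (SE 0.23), the ribonuclease gene Ear1 at 1.16 (SE 0.13) and the keratin gene Krt79 at 1.16 (SE 0.17). The sialic acid receptor gene Siglecf at 0.81 (SE 0.15) and the integrin gene Itgax at 0.68 (SE 0.13) were called too. With single arrays left out, the call was lost for Itgax in 6 of 6 fits (adjusted p 0.0503 to 0.160), for Siglecf in 4 of 6, all but those without knockout 1 or 11 (up to 0.142), for Krt79 without wild type 12, wild type 13 or knockout 12 (up to 0.0913), for Marco without wild type 11 or 13 (up to 0.0628) and for Ear1 without wild type 13 (0.0615), in limma. The summed linear signal of the 13 genes was 66.6 in knockout 12 and 66.4 and 62.0 in wild types 11 and 12, all on day 2. On day 1 it was 39.5 and 43.8 in knockouts 1 and 11 and 44.5 in wild type 13. Chil3 and Chil4 were likewise higher on day 2, and the part of macrophage content in their values was not tested. Between the genotypes the marker median was -0.14, and 0.072 after adjustment for the day. Of the 13 measured genes of the broader macrophage and monocyte list, 8 had a positive difference on day 2, with a median of 0.24. In that list 0 were called higher and 1 lower, against 2.16% and 8.50% of all genes. It was Cx3cr1 at -2.43 (SE 0.49), whose call was lost in 5 of 6 fits with an array left out. Of the alveolar type 2 cell markers, 11 of 12 had a positive difference on day 2, with a median of 0.37. Called higher were 3 of the 12, against 2.16% of all genes, each losing its call in 5 or 6 of the 6 fits with an array left out.

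**Figure D4:**
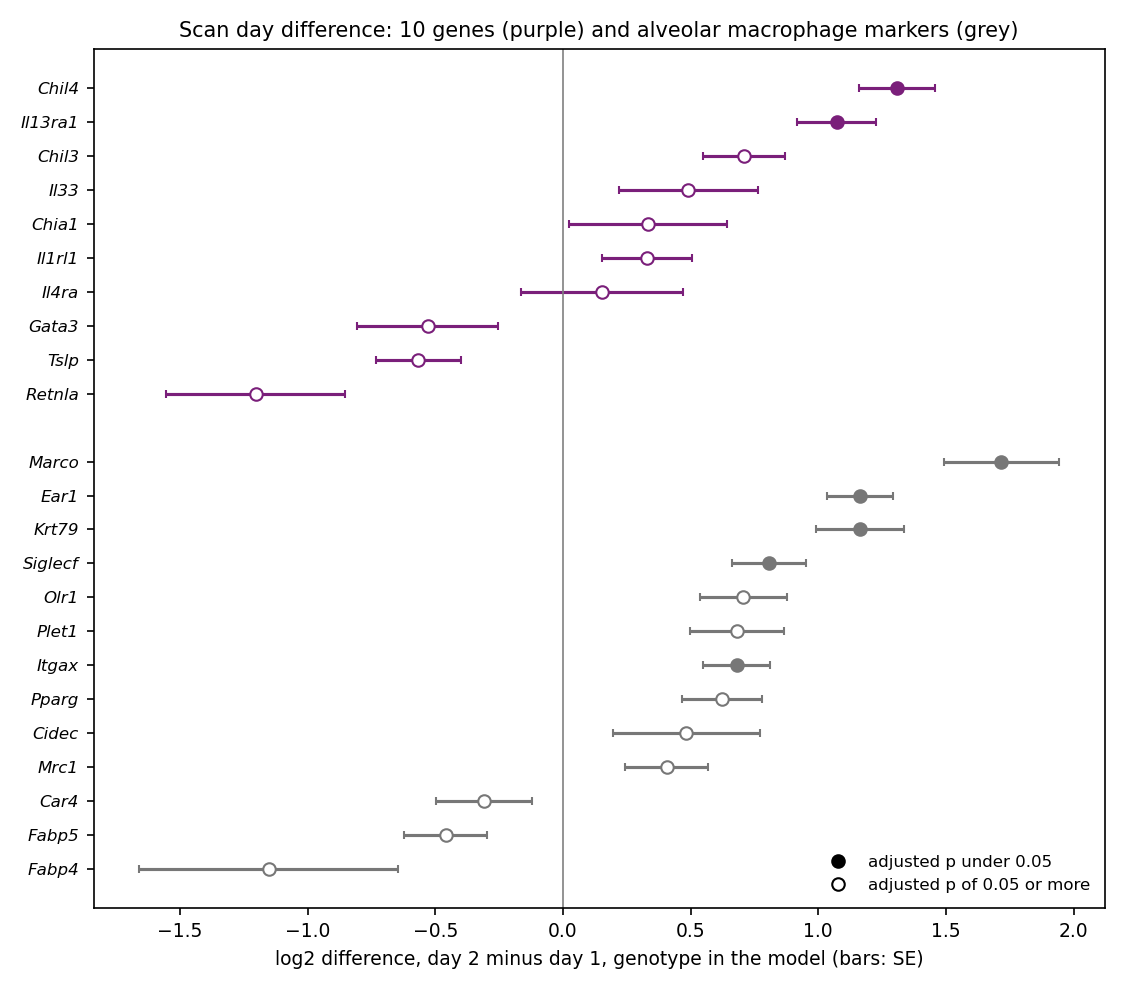
Log2 difference, day 2 minus day 1, with genotype in the model, for the 10 type 2 genes (purple, upper block) and the 13 measured alveolar macrophage markers (grey, lower block), with bars for the SE. Filled circles passed an adjusted p of 0.05. Chil4 at 1.31 and Il13ra1 at 1.07 are filled among the 10 genes, and Marco, Ear1, Krt79, Siglecf and Itgax among the markers.

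The promoters of Retnla, Chil3 and Chil4 were chosen after the signs of the day differences were seen, positive for Chil3 and Chil4 and negative for Retnla. Of these genes only Chil4 passed the adjusted threshold between the days over genes. A link between these sequences and the day differences was not tested. Each sequence is the 250 bases before the gene's start in RefSeq (GRCm38.p6), written 5′ to 3′ on the gene's strand, and capitals mark a match to a STAT motif. They are Retnla (chr16:48842359-48842608, plus strand), Chil3 (chr3:106167565-106167814, minus strand) and Chil4 (chr3:106219480-106219729, minus strand).
Retnla: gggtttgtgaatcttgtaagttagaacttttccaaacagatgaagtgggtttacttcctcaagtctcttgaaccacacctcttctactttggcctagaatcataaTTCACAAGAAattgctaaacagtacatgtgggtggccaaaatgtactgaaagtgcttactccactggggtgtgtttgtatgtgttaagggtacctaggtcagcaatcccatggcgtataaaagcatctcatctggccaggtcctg
Chil3: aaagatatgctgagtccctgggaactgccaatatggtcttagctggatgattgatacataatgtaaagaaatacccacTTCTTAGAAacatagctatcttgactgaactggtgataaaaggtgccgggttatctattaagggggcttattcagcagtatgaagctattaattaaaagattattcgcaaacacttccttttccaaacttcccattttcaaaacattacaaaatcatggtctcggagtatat
Chil4: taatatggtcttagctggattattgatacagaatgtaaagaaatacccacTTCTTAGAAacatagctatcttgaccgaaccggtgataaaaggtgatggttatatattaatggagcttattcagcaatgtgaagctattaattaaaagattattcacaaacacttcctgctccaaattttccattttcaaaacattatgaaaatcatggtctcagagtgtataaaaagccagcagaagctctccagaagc
Over 221 aligned bases the promoters of Chil3 and Chil4 were identical at 201, or 91%. Motifs were searched as letters, each of which reads the same on both strands. The spacing TTCNNNNGAA, which STAT6 is known to prefer, was found in the 250 bases before Retnla, starting 145 bases before the start, and before Il33, 36 bases before it. It was present in 5.85% of 32851 promoters of the same length. TTCNNNGAA, the spacing of other STAT proteins, was found before Chil3 at 172 bases and before Chil4 at 200 bases, and in 7.02% of promoters. Matches of the motifs did not overlap each other. Of the 10 genes 9 had a promoter entry, all but Tslp. The matches before Chil3 and Chil4 are the same letters in promoters that are 91% identical, so they are not separate evidence. A match describes the letters and is not a measured binding site.

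The genes whose pattern over the 6 arrays was most like that of Retnla were Carf, AK043080, Pomt1, Syt5 and NAP122883-1, with Pearson correlations of 0.994 to 0.996. Over 6 arrays high correlations were common, and 990 of 20236 genes correlated with Retnla above 0.9. The genes named are the highest of these. The part of the scan days in these correlations was not tested.

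Of 7 listed genes of type 2 cytokines 4 were measured, with a median genotype difference of 0.024, and Il5 and Il9, which act on eosinophils and mast cells, were not well above background on even 1 array. Il13 had log2 signals of -4.96, -5.97 and -5.17 in knockouts 1, 11 and 12, against -5.25, -5.52 and -4.84 in wild types 11, 12 and 13, a difference of -0.16 (SE 0.33). Il4 had a difference of -0.15 (SE 0.19). The genotypes overlapped for both cytokines, which were well above background on every array but dim. Il4 was at -6.05 to -5.49. The lowest signals judged well above background were -6.94 to -6.20 across the arrays. The sizes of these differences are therefore not firm. Csf2, which encodes the growth factor GM-CSF, had log2 signals of -2.39, -2.32 and -2.22 in knockouts 1, 11 and 12, against -2.61, -2.55 and -2.43 in wild types 11, 12 and 13. The groups did not overlap, and 2.41% of all genes likewise had knockout values wholly above the wild type. The Csf2 difference of 0.22 (SE 0.16) had an adjusted p of 0.9998 in limma.

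Of 12 listed receptor partners 9 were measured, with 4 higher, 5 lower and a median of -0.066. Il13ra2, the decoy receptor for IL-13, was well above background on 0 arrays. Il1rap, the coreceptor of ST2, had a genotype difference of -0.51 (SE 0.46) and was higher on day 2 by 1.1 (SE 0.20), at an adjusted p of 0.0300 in limma. This call was lost in 5 of 6 fits with single arrays left out, at adjusted p up to 0.162, and held without knockout 11. Of 22 signalling genes of the IL-4, IL-13 and IL-33 pathways 21 were measured, with 8 higher, 13 lower and a median of -0.072. They included Myd88, the adaptor of the IL-33 receptor, at -0.37 (SE 0.27). In these 3 lists 0 genes reached an unadjusted p under 0.05 between genotypes in limma, against 0.958% of all genes.

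Of 28 listed genes that respond to IL-4 and IL-13, 22 were measured, 8 higher and 14 lower in knockouts, with a median of -0.090. An unadjusted p under 0.05 was reached by 3 of the 22, against 0.958% of all genes, all lower, and an adjusted p of 0.05 by 0. The 3 were Tff2, a trefoil peptide of mucous cells, at -3.71 (SE 0.78), the protease inhibitor gene Serpinb2 at -0.76 (SE 0.26) and Agr2, a folding factor for mucins, at -0.77 (SE 0.30). Within day 1 and day 2 the differences were -4.78 and -2.86 for Tff2, -0.53 and -0.67 for Serpinb2 and -1.23 and -0.16 for Agr2. Markers of airway secretory cells, in which mucous genes are expressed, were 5 higher and 5 lower, with a median of -0.79. The median was -0.74 adjusted for the day, -1.85 on day 1 and 0.13 on day 2. This median lay between the 5 lower and the 5 higher genes. All 5 lower genes were negative within both days, from Bpifa1 at -10.1 and -9.30 to Muc5b at -3.02 and -0.225. The others of the 5 were Reg3g, Bpifb1 and Scgb3a1. Of the 5 higher genes, Scgb3a2 (-0.67 and 0.99) and Aldh1a1 (-0.18 and 0.48) changed sign between day 1 and day 2. An unadjusted p under 0.05 was reached by 3 of the 10 in limma, all lower, against 0.958% of all genes. Among them Bpifa1 and Bpifb1, secreted airway proteins, had differences of -9.83 (SE 0.70) and -4.21 (SE 1.08), neither past an adjusted p of 0.05. Bpifa1 stood well above background on 2 of 3 knockout arrays. Knockout 1, at -7.79, was below the lowest signal judged well above background on its array, -6.94. The size of the Bpifa1 difference is therefore not firm. The list's summed linear signal was 621 to 988 in knockouts and 610 to 771 in wild types, and its part in the mucous genes was not tested. Clca1, a goblet cell gene, stood well above background on 1 of 3 knockout arrays and 3 of 3 wild-type arrays. The groups overlapped, since knockout 11, at -1.71, was the highest of the 6 arrays, and the wild types were at -2.31, -3.31 and -3.14.

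Among the relatives of the chitinase and resistin genes, 8 of 10 were measured, 2 higher and 6 lower in knockouts, with a median of -0.52. The median was -0.34 adjusted for the day, -0.062 on day 1 and -0.60 on day 2. An unadjusted p under 0.05 was reached by 1 of the 8, against 0.958% of all genes, namely Retn, which encodes resistin. Retn had log2 signals of -5.15, -4.0 and -5.07 in knockouts 1, 11 and 12, against -2.39, -4.41 and -1.32 in wild types 11, 12 and 13, a difference of -2.03 (SE 0.80) at an adjusted p of 0.9998 in limma. The groups overlapped, since wild type 12 lay among the knockouts. The differences were -1.97 (SE 1.06) for Retnlg, a resistin-like gene of neutrophils, -0.65 (SE 0.37) for the chitotriosidase gene Chit1 and -0.51 (SE 0.27) for Chil5. Within day 1 and day 2 the differences were -3.25 and -1.67 for Retn and -0.49 and -0.24 for Chil5. They changed sign for Retnlg, at 0.39 and -3.83, and for Chit1, at 0.29 and -1.29.

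Markers of adipocytes and of neutrophils are given beside these relatives, since those lists hold Retn and Retnlg. All 10 measured adipocyte markers were lower in knockouts, with a median of -1.39, which was -2.17 adjusted for the day, -2.21 on day 1 and -1.94 on day 2. An unadjusted p under 0.05 was reached by 4 of them, against 0.958% of all genes, and an adjusted p of 0.05 by 0. Retn is in that list, and Pck1, Adipoq and Cfd had differences of -3.10 (SE 0.98), -2.72 (SE 0.95) and -2.77 (SE 1.0). The summed linear signal of the adipocyte list was 8.47 to 43.5 in knockouts and 10.8 to 39.6 in wild types. Car3, a carbonic anhydrase gene, gave 36.3 of the 43.5 in knockout 1, and without Car3 the sum was 7.15, 11.5 and 8.35 in knockouts 1, 11 and 12, against 26.3, 10.1 and 34.4 in wild types 11, 12 and 13. Lep and Ucp1 were not measured, with Ucp1 well above background on 0 arrays. All 16 measured neutrophil markers were lower in knockouts, with a median of -1.1, which was -1.01 adjusted for the day, -0.007 on day 1 and -2.30 on day 2, and Retnlg is among them. An unadjusted p under 0.05 was reached by 3 of them, against 0.958% of all genes, and an adjusted p of 0.05 by 0 in limma. Their summed linear signal was 48.4 to 204 in knockouts and 91.1 to 330 in wild types. The parts of adipocyte and neutrophil content in the values of Retn and Retnlg were not tested.

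Genes of type 2 lymphocytes were measured for 14 of 18, with 8 higher, 6 lower and a median of 0.038. An unadjusted p under 0.05 was reached by 0 of them in limma, against 0.958% of all genes. Bcl11b, a transcription factor of T cells and innate lymphoid cells, was lower on day 2 by 2.18 on the log2 scale (day 2 minus day 1 was -2.18, SE 0.24), at an adjusted p of 0.00772 in limma, which was 0.0766 without wild type 13 and 0.0628 without knockout 12. Eosinophil markers, 7 of 9 measured, had a genotype median of -0.18, and a median between the days of 0.87, with Ear6 higher on day 2 by 1.34 (SE 0.15), at an adjusted p of 0.00856 in limma, or 0.0613 without wild type 13. The other gene called there, Siglecf, is also in the alveolar macrophage list. Epx, in the eosinophil list alone, was dim, at -6.16 to -5.20. Its day difference was 0.41 (SE 0.33), at an adjusted p of 0.479 in limma. The part of macrophage content in the Ear6 values was not tested. Il5ra, the eosinophil receptor gene, was not measured. Mast cell and basophil markers, 10 of 13 measured, had a genotype median of -0.080, and the proteases Mcpt1 and Tpsab1 were well above background on 0 arrays. In that list 1 of the 10 reached an unadjusted p under 0.05 in limma, against 0.958% of all genes. It was Slc18a2 at -0.69 (SE 0.22), with -0.90 on day 1 and -0.62 on day 2. Its adjusted p was 0.9998 in limma. Its groups did not overlap, and 1.59% of all genes likewise had knockout values wholly below the wild type. Macrophage and monocyte markers, 13 of 14 measured, had a genotype median of 0.034.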

How the data were processed

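Total RNA of 6 lungs was amplified and labelled with Cy3, per the labels' protocols. The deposited scanner files hold an intensity per spot, with probe positions on mm7. Their software was Agilent Feature Extraction, in version 9.5.1.1 by the headers and 9.1 per the submitters' processing notes. The authors' deposited table holds log2 values with array medians of 8.09, and the sources used here do not say how it was made.

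The processed signal was log2 transformed and the 75th percentile of each array subtracted. Outlier spots were left out and spots of a probe averaged. A gene was represented by its brightest probe among those well above background on at least 3 arrays, whatever the group. Of 41144 probes, 32691 were named through RefSeq (GRCm38.p6), and the other 8453 kept the array's name. Genotypes were tested two-sided with lmFit and eBayes of limma 3.58.1, run in R 4.3.3, with Benjamini-Hochberg adjustment over 20246 genes or 30505 probes. The labels give separate biological replicates. Named genes were all 10 members, up to 4 genes per list with the smallest p, of which the text gives a selection, and the 5 genes most like the member with the widest range. List genes named for being past the threshold between scan days, or for not being measured, and Il4, Il13, Car3, Fabp5 and Car4 were named after their values were seen. The members and lists were chosen with earlier results of these data known. Alternatives covered scaling, background correction, the authors' values, filters, probe averaging, scan day, slide, replicate number, variance and leaving out each array. On simulated data for this comparison with 20246 genes, 8%, 58%, 86% and 96% of genes changed by 1, 2, 4 and 8 on the log2 scale were recovered, with 9 false calls among 133. The simulated noise was drawn independently for each gene and array, without scan day or slide. These rates therefore do not cover differences that arrays of a day share.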

Additional observations from a re-analysis of the deposited data

How the results depend on the processing

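No member gene passed an adjusted p of 0.05 between genotypes under any of the alternatives run. The count of members at an unadjusted p under 0.05 was 1 adjusted for the scan day, 4 within day 2 and 1 with the replicate block, and lay between 0 and 2 with single arrays left out, with 2 without wild type 13 and 2 without knockout 12. The replicate block used numbers 11 and 12, which occur in both genotypes. Same-numbered arrays deviated from their group means with correlations of -0.244 and 0.418, so the numbers were not taken to pair the samples. Over all genes, 0 passed in the fit as reported, 2 with median scaling, 1 with normexp, 1 on the authors' values, 2 with the slide as a random block and 1 with trended and robust variance, and 0 to 1 with single arrays left out (1 without knockout 1).

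The sign of the genotype difference turned within day 1 for Il33 (0.50), Il1rl1 (-0.10), Il4ra (0.25) and Retnla (-0.77, and -0.81 for its other probe), and within day 2 for Gata3 (-0.12) and Chia1 (0.072). Adjusted for the day it turned for Chil4 (0.26) and Retnla (-0.053, and -0.056 for its other probe). Chil4 also turned within day 1 (0.21), within day 2 (0.30) and with the slide as a random block (0.095). With single arrays left out, the difference ranged from -0.14 to 0.18 for Il1rl1 (negative without knockout 12), from -0.40 to 0.070 for Il4ra (positive without knockout 1), from -0.031 to 0.42 for Chil3 (negative without wild type 13), from -0.64 to 0.12 for Chil4 (positive without knockout 1, wild type 11 or wild type 12) and from -0.009 to 0.99 for Retnla (negative without wild type 11). It kept its sign but moved for Il33, from -0.57 (without wild type 13) to -0.040 (wild type 11), Tslp, from 0.13 (knockout 11) to 0.51 (knockout 12), Il13ra1, from -0.89 (knockout 12) to -0.27 (knockout 1), Gata3, from 0.30 (wild type 11) to 0.79 (knockout 12), and Chia1, from -0.83 (knockout 12) to -0.28 (knockout 1). The difference between day 2 and day 1 ranged from -0.063 to 1.04 for Il33 (negative without wild type 13), from -0.18 to 0.49 for Il4ra (negative without wild type 13 and, at -0.00034, without knockout 1) and from -0.18 to 0.84 for Chia1 (negative without knockout 12). The cause of these changes was not tested.

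With 3 arrays a genotype, the number of arrays limits the precision. The dimmest probes, those for transcript variant 2 of Il1rl1, were 1.40 to 3.02 times as bright as their local background.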
